A study of Mus musculus with 26 samples.

Results

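A set of 10 genes of inflammatory resolution and of the clearance of dying cells were followed in the mouse left ventricle: Lgr6, Cmklr1, Anxa1, S100a10, Alox5ap, Lta4h, Mertk, Axl, Gas6 and Mfge8. They were taken by gene symbol from a table of 40413 genes, and all 10 of 10 were found and passed the filter on low counts. Polyadenylated RNA had been sequenced from adult mice of the hypertensive inbred strain BPH/2J and the normotensive strain BPN/3J. Mice of each strain had received Cmpd17b, which activates formyl peptide receptors, by intraperitoneal dosing with 50 mg/kg once a day for 28 days, or vehicle for the same time. Age in weeks and sex were not given in the sources used here. The groups compared were BPH/2J on Cmpd17b (BPH_Cmpd17b, 6 libraries), BPH/2J on vehicle (BPH_vehicle, 7), BPN/3J on Cmpd17b (BPN_Cmpd17b, 5) and BPN/3J on vehicle (BPN_vehicle, 7), each library with an animal number of its own in its title.

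Resolution is the active ending of inflammation. Specialised lipid mediators made from fatty acids, and proteins such as annexin A1, act on receptors of leukocytes and other cells and slow the entry of neutrophils. Macrophages then engulf dying cells, a process called efferocytosis. Receptor tyrosine kinases of the TAM family (Tyro3, Axl and Mertk) bind Gas6, and some of them also bind protein S. These ligands bridge to phosphatidylserine on the dying cell, and Mfge8 bridges the same lipid to integrins. In the heart, Mertk on resident macrophages takes part in the clearance of cardiomyocyte debris.

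Of 26 libraries, 1 labelled BPH_Cmpd17b (replicate 7) was left out of all main values because it did not carry a ventricular profile: Myh6, the main ventricular myosin heavy chain, stood at 12.4 CPM there and at no less than 13442 CPM in the other 25, while Kap, a gene of the kidney proximal tubule, stood at 18930 CPM there and at no more than 125 CPM in the others. Levels are given in CPM, counts divided by library size after TMM scaling for composition. Total counts in the 25 libraries ran from 25476112 to 48648196. The labels put 20 of the 25 libraries in batch 1 and 5 in batch 2, and all BPN_Cmpd17b libraries were in batch 1. Ventricular cardiomyocyte markers summed to between 44046 and 66876 CPM in every library of the 25. In one BPN_vehicle library (replicate 7) endothelial markers summed to 1309 CPM, where BPN_vehicle had a median of 598 CPM. Hepatocyte markers summed to between 0.131 and 511 CPM in BPN_vehicle and to no more than 3.96 CPM in each other group.

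The 3 members that differed between the vehicle-treated strains were Lgr6, Mertk and Gas6, so their promoters are shown as the reference sequence around the genes concerned. They are from RefSeq on GRCm38.p6, from 250 bases before to 50 bases after the gene start, read 5′ to 3′ on the gene's own strand, while the counts were made on GRCm39. The reference mouse is C57BL/6J, and sequences of BPH/2J and BPN/3J were not used here. Capitals mark each GC box, searched as GGGCGG on both strands (CCGCCC on the other), a motif that 35.7% of 32851 promoters of the same table hold. The regions are chr1:135105227-135105526 (minus strand, Lgr6), chr2:128698665-128698964 (plus strand, Mertk) and chr8:13494486-13494785 (minus strand, Gas6).
Lgr6: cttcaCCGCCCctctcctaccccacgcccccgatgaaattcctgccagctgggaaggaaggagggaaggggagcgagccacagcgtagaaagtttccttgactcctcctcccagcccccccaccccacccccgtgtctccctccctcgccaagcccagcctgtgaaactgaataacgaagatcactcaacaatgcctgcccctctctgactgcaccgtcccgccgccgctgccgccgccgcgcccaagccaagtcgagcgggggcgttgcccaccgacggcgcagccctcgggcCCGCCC
Mertk: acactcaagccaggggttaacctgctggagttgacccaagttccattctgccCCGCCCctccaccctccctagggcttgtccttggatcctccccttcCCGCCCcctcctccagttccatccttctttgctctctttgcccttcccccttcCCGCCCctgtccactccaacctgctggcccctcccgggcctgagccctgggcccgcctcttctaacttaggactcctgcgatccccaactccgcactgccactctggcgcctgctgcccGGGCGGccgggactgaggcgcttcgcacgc
Gas6: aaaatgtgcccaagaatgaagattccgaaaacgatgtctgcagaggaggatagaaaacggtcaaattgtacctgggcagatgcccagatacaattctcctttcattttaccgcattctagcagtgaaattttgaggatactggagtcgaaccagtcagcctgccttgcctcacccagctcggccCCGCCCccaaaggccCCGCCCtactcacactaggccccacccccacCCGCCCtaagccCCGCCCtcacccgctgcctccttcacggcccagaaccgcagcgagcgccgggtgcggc
The Lgr6 window held 2 GC boxes, that of Mertk 4 and that of Gas6 4. None of the 3 held TATAAA, which 13.6% of all promoters hold, or CCAAT (37.4%), on either strand. Their GC content was 67.7%, 66.0% and 58.3%, where the median of all promoters was 52.7%. In all, 8 members matched the promoter table. Of the other members matched, Mfge8 held 4 GC boxes, Axl 2, and Anxa1, Cmklr1 and Lta4h 0. Their GC content was 64.3%, 60.3%, 47.3%, 51.7% and 60.7% in that order.

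Without the drug, hypertensive ventricles held far more Lgr6 and less Mertk and Gas6 than normotensive ones, and the other 7 members were not called. Lgr6, a receptor for R-spondins and for the lipid mediator maresin-1, was 10.2-fold higher in BPH/2J. Mertk stood at 0.355 of its BPN/3J level and Gas6 at 0.857. By edgeR's quasi-likelihood test, called at an adjusted p under 0.05 over all 15543 genes, 1 member was higher and 2 were lower in BPH_vehicle. Among all genes 18.9% were called, 9.16% higher and 9.73% lower, so 3 of 10 was read against about 2 of 10. The median log2 difference of the members was -0.0034, beside -0.00076 for all genes. The members had been chosen with earlier results of these data known, so their count carries no test.

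**Figure D1:**
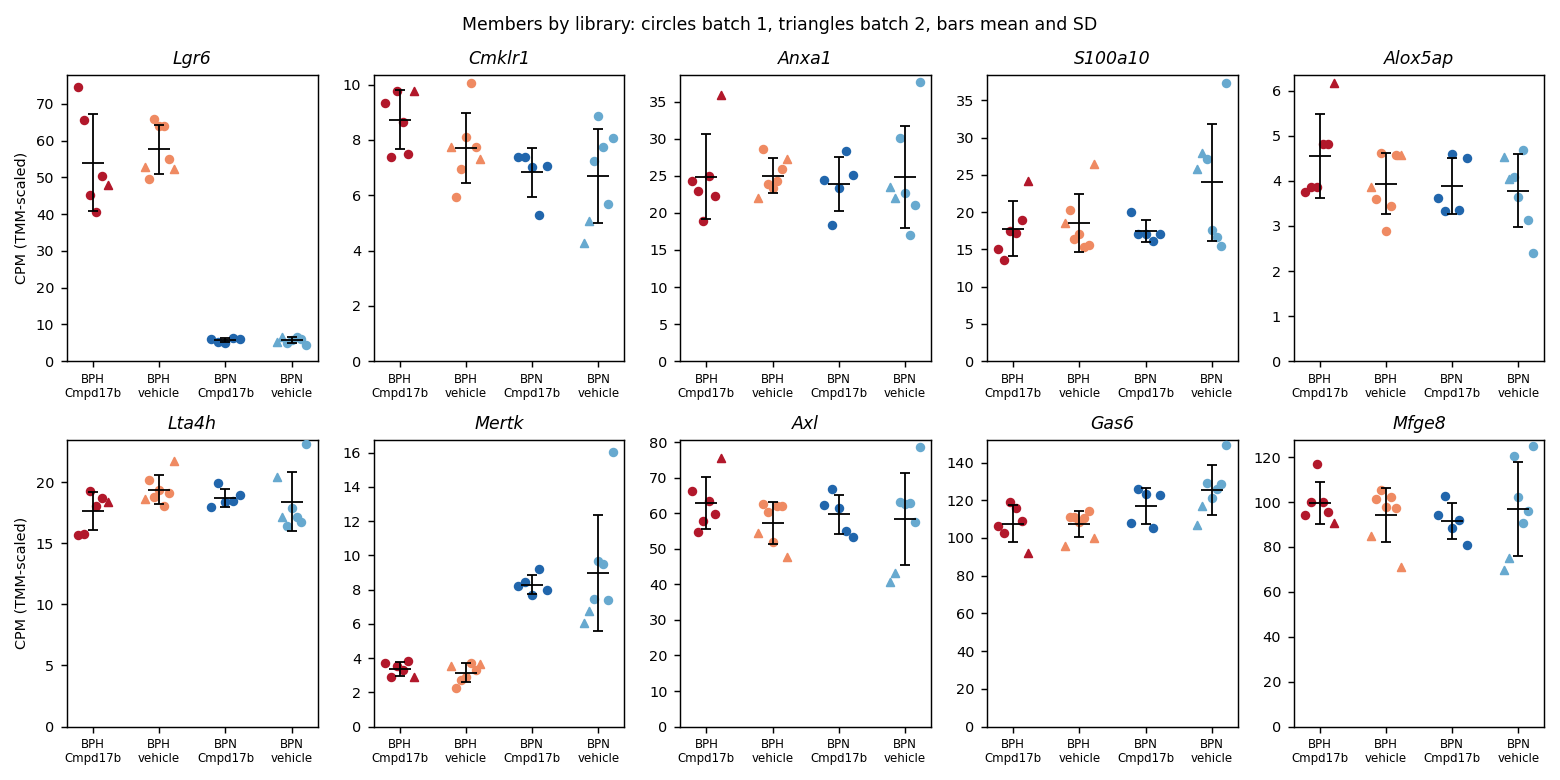
CPM of each member in each of the 25 libraries (points, circles for batch 1 and triangles for batch 2) by group, with the mean and SD. Lgr6 lies between 40.7 and 74.5 CPM in all BPH/2J libraries and at most 6.73 CPM in all BPN/3J libraries, Mertk is lower in all BPH/2J libraries, and the other members overlap between strains, except Cmklr1 on Cmpd17b.

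Among the receptors for mediators, Lgr6 ran from 49.6 CPM to 65.9 CPM in the 7 BPH_vehicle libraries, with a median of 54.9 CPM, and from 4.50 to 6.73 CPM in the 7 BPN_vehicle libraries, with a median of 5.75 CPM. Every BPH/2J library thus lay above every BPN/3J library. The log2 difference was 3.34 ± 0.13 (SE, adjusted p = 4.16e-18, edgeR). Within batch 1 it was 3.41 and within batch 2, where each strain had 2 vehicle libraries, 3.18. On Cmpd17b the same gene lay at 74.5, 65.5, 45.3, 40.7, 50.5 and 47.9 CPM in BPH/2J, against 6.15, 5.27, 5.05, 6.38 and 5.98 CPM in BPN/3J. These mice are separate from the vehicle mice, and the difference was 3.24 ± 0.15 (SE, adjusted p = 3.69e-16). The level of Lgr6 thus separated the strains without overlap under either treatment. Groups that do not overlap were found for 6.36% of all genes under vehicle and for 12.6% under Cmpd17b, and for 2 and 3 members. Atrial markers also differed with strain, with overlap under vehicle: they summed to 329 to 1101 CPM in BPH_vehicle and 170 to 878 CPM in BPN_vehicle, and to 457 to 2550 CPM in BPH_Cmpd17b and 78.5 to 204 CPM in BPN_Cmpd17b. Of 5 atrial markers 2 were tested and 1 was called higher in each comparison. The part of atrial tissue in the difference of Lgr6 was not tested.

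Cmklr1 encodes the receptor for chemerin, which also binds the lipid mediator resolvin E1. It was the third member whose groups did not overlap on Cmpd17b, with 7.40 to 9.78 CPM (median 8.98) in 6 BPH/2J libraries and 7.39, 7.38, 7.03, 5.28 and 7.07 CPM in BPN/3J libraries. The lowest BPH/2J library stood only 0.01 CPM above the highest BPN/3J library. The log2 difference was 0.40 ± 0.15 (SE) and did not pass the test (adjusted p = 0.0832, edgeR). Under vehicle it was 0.21 ± 0.13 (adjusted p = 0.302), with means of 7.70 ± 1.26 CPM in BPH_vehicle and 6.71 ± 1.71 CPM in BPN_vehicle (SD, n = 7 each). Within batch 1 it was 0.04 (adjusted p = 0.874) and within batch 2 it was 0.69 (adjusted p = 0.0572).

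Among the receptors of efferocytosis, Mertk ran from 2.26 to 3.71 CPM (median 3.31) in BPH_vehicle and from 6.06 to 16.1 CPM (median 7.43) in BPN_vehicle. The 2 ranges did not overlap, and 1 BPN_vehicle library, replicate 7, stood far above the next at 9.64 CPM. The log2 difference was -1.49 ± 0.16 (SE, adjusted p = 3.53e-08, edgeR) and -1.31 without that library (adjusted p = 6.19e-10). Mertk was called within each batch, at -1.75 within batch 1 (adjusted p = 9.11e-08) and at -0.83 within batch 2 (adjusted p = 0.0418). On Cmpd17b Mertk ran from 2.91 to 3.84 CPM (median 3.42) in BPH/2J and stood at 8.23, 8.42, 7.67, 9.17 and 7.97 CPM in BPN/3J, again with no overlap (-1.27 ± 0.18, adjusted p = 5.21e-06). With the library of kidney profile included, Mertk was not called on Cmpd17b (-0.76, adjusted p = 0.368), and that library held 24.95 CPM of it. Counts of Mertk were low, between 85 and 164 per library in BPH/2J and between 173 and 510 in BPN/3J.

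Mertk marks macrophages, and in bulk tissue fewer cells of a type and less RNA per cell cannot be told apart. Of 15 macrophage markers, all tested, 2 were called higher and 0 lower in BPH_vehicle, with a median log2 difference of 0.24. The 2 were Mrc1 (0.32, adjusted p = 0.0253) and Lyz2 (0.49, adjusted p = 0.0229). That is 13.3% of the list, below the 18.9% of all genes. On Cmpd17b 1 was called higher and 1 lower in BPH/2J (13.3%, beside 14.1% of all genes). The markers summed to 187 to 284 CPM in BPH_vehicle and 154 to 243 CPM in BPN_vehicle, overlapping ranges with the higher median in BPH/2J (246 against 201 CPM). The part of macrophage number in the difference of Mertk was not tested.

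Axl, the other TAM receptor among the members, did not separate the strains. It ran from 47.7 to 62.5 CPM (median 60.5) in BPH_vehicle and from 40.7 to 78.8 CPM (median 62.6) in BPN_vehicle, a log2 difference of -0.02 with a 95% interval from -0.22 to 0.19 (adjusted p = 0.943, edgeR). On Cmpd17b the means were 63.0 ± 7.36 CPM in BPH/2J (SD, n = 6) and 59.8 ± 5.54 CPM in BPN/3J (SD, n = 5), a difference of 0.13 ± 0.12 (SE, adjusted p = 0.572). The lowest 2 of the BPN_vehicle libraries, at 40.7 and 43.3 CPM, were those of batch 2.

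Of the bridging ligands, Gas6, which binds all TAM receptors, was the third member called. It ran from 95.7 to 115 CPM (median 111) in BPH_vehicle and from 107 to 149 CPM (median 126) in BPN_vehicle, and 6 of 7 BPN_vehicle libraries lay above every BPH_vehicle library. The log2 difference was -0.22 ± 0.06 (SE, adjusted p = 0.0111, edgeR), the smallest of the 3 called. Gas6 was called within batch 1 (-0.24, adjusted p = 0.0403) but not within batch 2 (-0.19, adjusted p = 0.465). The call also ended with all 26 libraries (-0.23, adjusted p = 0.159) and with no filter on low counts (-0.22, adjusted p = 0.0535). On Cmpd17b Gas6 averaged 108 ± 9.70 CPM in BPH/2J (SD, n = 6) and 117 ± 9.63 CPM in BPN/3J (SD, n = 5), and was not called (-0.09 ± 0.07, adjusted p = 0.49). Exons of Tmem255b overlap those of Gas6 on the opposite strand in GENCODE M21, and the sources used here do not say whether counting used strand, so reads of this pair cannot be told apart. Tmem255b was higher on average in BPH_vehicle, 6.13 ± 0.673 CPM against 4.67 ± 2.28 CPM in BPN_vehicle (SD, n = 7 each), which is the other direction, and was not called (0.39 ± 0.18, SE, adjusted p = 0.141, edgeR). On Cmpd17b Tmem255b was called higher in BPH/2J (0.85 ± 0.21, adjusted p = 0.00601).

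Mfge8, the milk-fat globule protein that bridges dying cells to integrins, ran from 71.2 to 105 CPM (median 97.8) in BPH_vehicle and from 69.6 to 125 CPM (median 96.05) in BPN_vehicle. The ranges overlapped almost entirely, with a log2 difference of -0.03 ± 0.08 (SE, adjusted p = 0.844, edgeR). On Cmpd17b the difference was 0.19 ± 0.09 (adjusted p = 0.211). In both vehicle groups the 2 libraries of batch 2 held the lowest Mfge8, 84.9 and 71.2 CPM in BPH/2J and 69.6 and 75.0 CPM in BPN/3J.

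The mediator proteins were not called in either strain comparison. Anxa1 encodes annexin A1, a protein ligand of the formyl peptide receptor Fpr2, and averaged 25.03 ± 2.32 CPM in BPH_vehicle and 24.8 ± 6.85 CPM in BPN_vehicle (SD, n = 7 each), a log2 difference of 0.01 with a 95% interval from -0.28 to 0.30. S100a10, the partner of annexin A2 at the cell surface, had a median of 17.1 CPM in BPH_vehicle and 25.9 CPM in BPN_vehicle, with a log2 difference of -0.38 ± 0.15 (SE, adjusted p = 0.068, edgeR). BPH_vehicle ran from 15.3 to 26.5 CPM, while in BPN_vehicle 4 libraries lay between 25.9 and 37.3 CPM and 3 between 15.4 and 17.6 CPM. DESeq2 put S100a10 just past the threshold (-0.38, adjusted p = 0.0473). So did edgeR when BPH_vehicle replicate 7 was dropped (adjusted p = 0.0461), or BPN_vehicle replicate 4, 5 or 6 (adjusted p = 0.0447, 0.0354 and 0.0247). It was -0.20 without BPN_vehicle replicate 7 (adjusted p = 0.185) and -0.12 with limma voom, which gives less weight to aberrant libraries (adjusted p = 0.411). On Cmpd17b the strains differed in S100a10 by -0.05 ± 0.17 (adjusted p = 0.893).

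The 2 members of leukotriene synthesis, Alox5ap and Lta4h, were not called between strains. Alox5ap encodes the protein that presents arachidonic acid to 5-lipoxygenase, and averaged 3.93 ± 0.675 CPM in BPH_vehicle and 3.79 ± 0.807 CPM in BPN_vehicle (SD, n = 7 each, log2 difference 0.06 ± 0.14, SE, adjusted p = 0.809, edgeR). Its exons overlap those of Gm19719 on the opposite strand, a gene not used here. Lta4h, the hydrolase that makes leukotriene B4, averaged 19.4 ± 1.22 CPM in BPH_vehicle and 18.4 ± 2.45 CPM in BPN_vehicle (0.08 ± 0.07, adjusted p = 0.538). For Lta4h the 95% interval ran from -0.08 to 0.23, the narrowest of these 4 genes. On Cmpd17b the differences were 0.17 ± 0.16 for Alox5ap (adjusted p = 0.566) and -0.10 ± 0.08 for Lta4h (adjusted p = 0.54). In that comparison 1 member was called higher (Lgr6) and 1 lower (Mertk), where 14.1% of all genes were called, 7.48% higher and 6.65% lower.

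**Figure D2:**
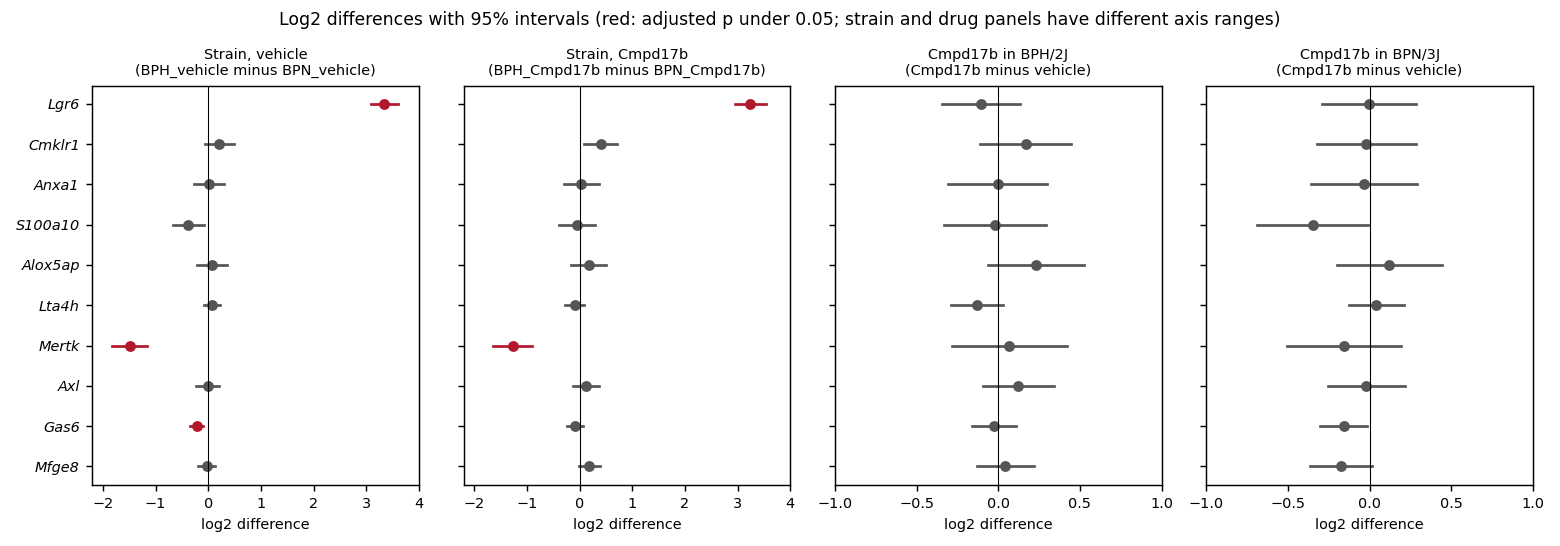
Log2 difference (points) and 95% interval (lines) of each member in the strain comparisons and the Cmpd17b comparisons, with differences called at an adjusted p under 0.05 in red. Lgr6 at 3.34 and 3.24 and Mertk at -1.49 and -1.27 stand away from zero in both strain comparisons, and no member is called in a Cmpd17b comparison.

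The comparison of Cmpd17b with vehicle asked whether the receptor agonist changed these genes in the ventricle. No member was called in either strain. In BPH/2J, Lgr6 averaged 54.1 ± 13.1 CPM on Cmpd17b (SD, n = 6) and 57.6 ± 6.77 CPM on vehicle (SD, n = 7), a log2 difference of -0.11 with a 95% interval from -0.34 to 0.13. Mertk averaged 3.37 ± 0.393 CPM on Cmpd17b and 3.15 ± 0.545 CPM on vehicle (0.07, interval from -0.28 to 0.42). The intervals of the 10 members in BPH/2J lay between -0.34 and 0.52, the upper bound being that of Alox5ap (0.23 ± 0.14, SE). Alox5ap averaged 4.55 ± 0.932 CPM on Cmpd17b and 3.93 ± 0.675 CPM on vehicle. Among all genes edgeR called 0 of 15543 in BPH/2J (0%), with 287 at an unadjusted p under 0.05 and 0 members among them. The groups did not overlap for 0.0772% of all genes and for 0 members. DESeq2 and limma voom also called 0.

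In BPN/3J S100a10 stood at 20.1, 17.02, 17.01, 16.2 and 17.1 CPM on Cmpd17b and had a median of 25.9 CPM on vehicle, a log2 difference of -0.35 ± 0.16 (SE, unadjusted p = 0.0444, adjusted p = 0.514, edgeR). Without BPN_vehicle replicate 7 it was -0.15. The BPN_vehicle libraries of batch 2 held 25.9 and 28.0 CPM of S100a10, and those of batch 1 held 27.2, 17.6, 16.7, 15.4 and 37.3 CPM. The vehicle median of 25.9 CPM is thus a batch 2 value. Gas6 averaged 117 ± 9.63 CPM on Cmpd17b and 125 ± 13.1 CPM on vehicle (-0.16 ± 0.07, unadjusted p = 0.0331, adjusted p = 0.514). Neither gene passed the adjustment, and the groups overlapped for both, as they did for all but 0.341% of all genes. The 95% intervals of the 10 members lay between -0.69 and 0.44. Lgr6 was level, 5.77 ± 0.575 CPM on Cmpd17b and 5.67 ± 0.840 CPM on vehicle (-0.0034, interval from -0.29 to 0.29), and Mertk had 8.29 ± 0.568 and 8.97 ± 3.39 CPM (-0.16, interval from -0.51 to 0.19). Without BPN_vehicle replicate 7 the sign of Mertk turned (0.06, adjusted p = 0.95). Among all genes 0 were called by edgeR (0%) and by limma voom, with 1506 at an unadjusted p under 0.05 in edgeR, 2 of them members, and DESeq2 called 1 gene, which is not a member. All BPN_Cmpd17b libraries were in batch 1. Each Cmpd17b comparison shares its vehicle libraries with the strain comparison under vehicle.

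The Cmpd17b effects of the 2 strains were also tested against each other. Of the members 0 were called, and of all genes 0 (0%), with 595 genes and 0 members at an unadjusted p under 0.05 by edgeR, and DESeq2 and limma voom called 0. The difference (BPH/2J minus BPN/3J) was 0.33 ± 0.22 for S100a10 (SE, adjusted p = 0.917), 0.22 ± 0.12 for Mfge8 (adjusted p = 0.917) and 0.23 ± 0.24 for Mertk (adjusted p = 0.917). Without BPN_vehicle replicate 7 it was 0.13 for S100a10 and 0.02 for Mertk, and limma voom gave -0.0028 for S100a10 and 0.099 for Mertk. The interval of Mertk ran from -0.26 to 0.71, so a moderate difference in its response was not detectable at this depth and number of mice.

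Levels of different genes can be compared only per length. Scaled by exon length from GENCODE M21 (on GRCm38, since the annotation used for counting is not given in the sources used here), Gas6 was the most abundant member in every group, with 42.2 ± 2.7 CPM per kb in BPH_vehicle and 49.2 ± 5.13 in BPN_vehicle (SD, n = 7 each). Mfge8 followed at 20.1 ± 2.58 and 20.7 ± 4.47 CPM per kb, then S100a10 at 15.3 ± 3.22 and 19.8 ± 6.51, and the last pair overlapped in BPN_vehicle. Axl stood at 11.4 ± 1.18 and 11.6 ± 2.59 CPM per kb and Anxa1 at 8.60 ± 0.797 and 8.54 ± 2.35. Lta4h, Alox5ap and Cmklr1 lay between 1.97 and 3.18 CPM per kb in both vehicle groups. The lowest place was held by Mertk in BPH_vehicle and by Lgr6 in BPN_vehicle. In BPH_vehicle Lgr6 stood at 8.41 ± 0.989 CPM per kb, beside Anxa1, and Mertk at 0.727 ± 0.126. In BPN_vehicle Mertk stood at 2.07 ± 0.783, beside Cmklr1 at 1.97 ± 0.501, and Lgr6 at 0.828 ± 0.123. The ligand Gas6 thus exceeded its receptor Mertk per length by a wide margin in both strains.

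**Figure D3:**
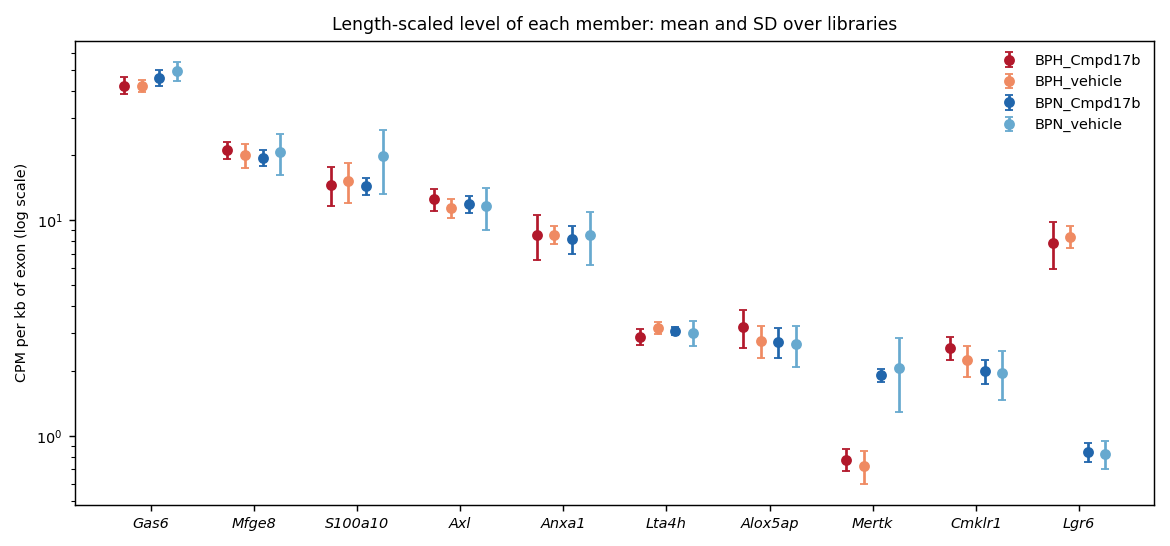
Mean and SD of CPM per kb of exon (log scale) for each member in the 4 groups, ordered by BPN_vehicle. Gas6 is highest in every group, and Lgr6 stands at 8.41 CPM per kb in BPH_vehicle and at 0.828 CPM per kb in BPN_vehicle.

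Relations between members were examined across mice, on what was left of each log2 value after a fit on group and batch. That fit held a level for each group and a batch shift shared by all groups. In all 75 relations were computed over 25 libraries, 45 between members and 30 between a member and the summed markers of macrophages, fibroblasts or endothelial cells, with libraries permuted 100000 times within group and batch (two-sided). BPH_Cmpd17b replicate 6, the only batch 2 library of its group, had no partner and kept its place in every permutation. The permutation p-values therefore do not test its own share in each r. Anxa1 followed the fibroblast marker sum (Pearson r = 0.84, permutation p = 0.0001, adjusted p = 0.0075, Spearman rho = 0.862, permutation p = 2e-05), and r was 0.721 without the 2 libraries farthest in Anxa1. Alox5ap followed the macrophage marker sum at the edge of the threshold (r = 0.711, permutation p = 0.00133, adjusted p = 0.0499, rho = 0.707, permutation p = 0.00156), and r was 0.693 without the 2 farthest libraries. Mertk with the macrophage sum did not pass (r = -0.199, permutation p = 0.416, adjusted p = 0.562, rho = -0.148, permutation p = 0.539), and r was -0.00667 without the 2 farthest. Nor did Mertk with the endothelial sum (r = 0.617, permutation p = 0.14, adjusted p = 0.358, rho = 0.17, permutation p = 0.401). There r was 0.156 without BPN_vehicle replicate 7, the library highest in both. Lyz2 made up the largest part of the macrophage sum, and relations with single macrophage markers were not tested. No pair of members passed the adjustment on Pearson's r. The closest was Lgr6 with Lta4h (r = -0.668, permutation p = 0.00246, adjusted p = 0.0525, rho = -0.685, permutation p = 0.00196, adjusted p = 0.049), with r = -0.593 without the 2 farthest libraries. Gas6 with its receptors gave r = 0.354 for Mertk (permutation p = 0.131, adjusted p = 0.35, rho = 0.113, permutation p = 0.574) and r = 0.24 for Axl (permutation p = 0.148, adjusted p = 0.358, rho = 0.102, permutation p = 0.561). Without the 2 farthest libraries these r were 0.0451 and 0.0974.

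**Figure D4:**
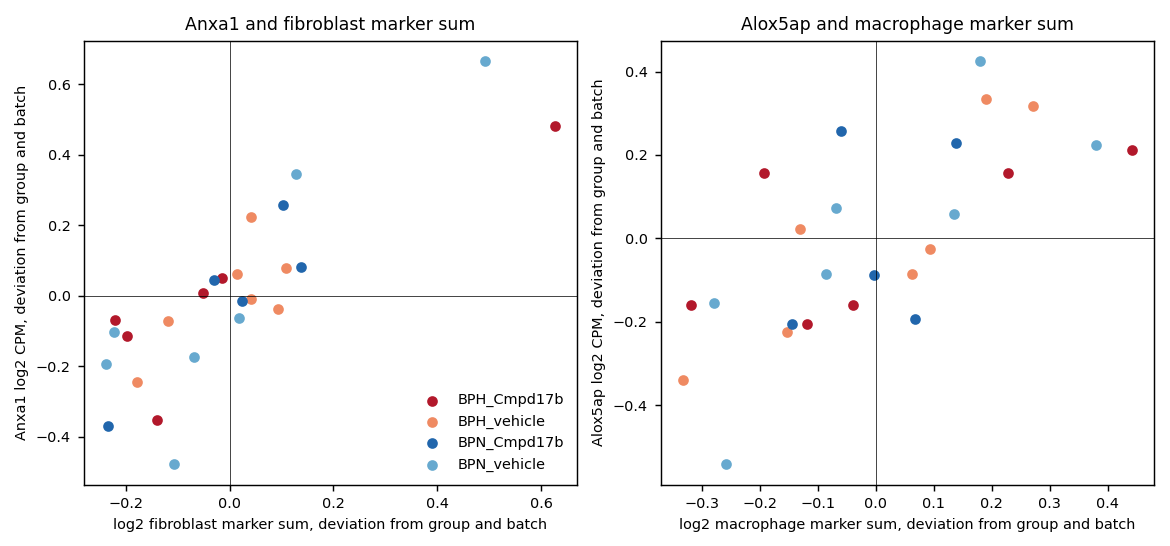
Deviation of Anxa1 (left) and Alox5ap (right) in log2 CPM from the value fitted from group and a shared batch shift. It is set against the same deviation of the log2 summed fibroblast or macrophage markers, 1 point per library, coloured by group. Anxa1 and the fibroblast sum go together with r = 0.84 over 25 libraries, and Alox5ap and the macrophage sum with r = 0.711.

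Other genes of these pathways were read from 4 lists. Among 24 tested lipid mediator enzymes and receptors (of 38 listed), 4 were higher and 2 lower in BPH_vehicle, or 25% where 18.9% of all genes were called. Hpgd, which inactivates prostaglandins, stood at 7.31 ± 1.21 CPM in BPH_vehicle and 4.09 ± 0.914 CPM in BPN_vehicle (SD, n = 7 each, log2 difference 0.87 ± 0.15, SE, adjusted p = 6.84e-05, edgeR). Ptgr1, a reductase that inactivates prostaglandins and leukotriene B4, stood at 3.76 ± 0.564 and 2.21 ± 0.510 CPM (0.76 ± 0.15, adjusted p = 0.000393). Ptgds, a prostaglandin D synthase, was higher by 0.60 ± 0.14 (adjusted p = 0.00223) and Alox5, the 5-lipoxygenase that works with Alox5ap, by 0.38 ± 0.11 (adjusted p = 0.013). The epoxide hydrolase Ephx2 was lower (-0.30 ± 0.08, adjusted p = 0.0111), and so was the cyclooxygenase Ptgs1 (-0.43 ± 0.15, adjusted p = 0.0407), though Ptgs1 was called in only 5 of 14 repeats that each dropped 1 library (-0.24 without BPN_vehicle replicate 7, adjusted p = 0.132). In batch 1 alone Ephx2 (-0.19, adjusted p = 0.105) and Ptgs1 (-0.46, adjusted p = 0.109) were not called, and in batch 2 alone none of the 6 was. On Cmpd17b 2 of the list were higher and 1 lower (12.5%, beside 14.1% of all genes): Ptgr1 (1.06 ± 0.18, adjusted p = 5.94e-05), the prostacyclin synthase Ptgis (0.98 ± 0.22, adjusted p = 0.00227) and, lower, Ephx2 (-0.45 ± 0.09, adjusted p = 0.000967).

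The formyl peptide receptors and some partners were near the limit of detection. Fpr1 averaged 0.117 ± 0.124 CPM in BPH_Cmpd17b, 0.0970 ± 0.163 in BPH_vehicle, 0.166 ± 0.0582 in BPN_Cmpd17b and 0.0973 ± 0.127 in BPN_vehicle, and was not tested, as were Fpr2, the leukotriene B4 receptor Ltb4r1, Lgr5 and Rspo3. Alox15, which makes precursors of several resolution mediators, was under 1 CPM in every group mean and was not called under vehicle (0.18 ± 0.37, adjusted p = 0.792) or on Cmpd17b (-0.06 ± 0.41, adjusted p = 0.953). Ltc4s, the leukotriene C4 synthase, differed by -0.52 ± 0.24 under vehicle (adjusted p = 0.129).

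Among 44 tested genes of efferocytosis (of 46 listed), 4 were higher and 2 lower in BPH_vehicle, or 13.6%, below the share of all genes. Ucp2, a mitochondrial carrier that mouse macrophages use during continued engulfment, stood at 34.4 ± 6.34 CPM in BPH_vehicle and 110 ± 33.7 CPM in BPN_vehicle (SD, n = 7 each), lower in BPH/2J by -1.67 ± 0.14 (SE, adjusted p = 6.04e-10, edgeR), with no overlap. Tyro3, the TAM receptor that is not a member, was lower too (1.88 ± 0.542 and 2.80 ± 0.750 CPM, -0.59 ± 0.19, adjusted p = 0.0292), and was called in 7 of 14 repeats that each dropped 1 library but not within batch 1 (-0.49, adjusted p = 0.152). P2ry2, a nucleotide receptor that senses signals of dying cells, was higher without overlap (0.56 ± 0.09, adjusted p = 3.46e-05). The receptor Cd300lf (2.06 ± 0.50, adjusted p = 0.00325) and the proteases Adam10 (0.32 ± 0.07, adjusted p = 0.000553) and Adam17 (0.30 ± 0.07, adjusted p = 0.00176) were higher. Cd300lf was near the limit of detection, with 0.505 ± 0.136 CPM in BPH_vehicle and 0.118 ± 0.128 CPM in BPN_vehicle (SD, n = 7 each). Its medians were 0.0577 CPM in BPN_Cmpd17b and 0.0701 CPM in BPN_vehicle. It thus passed the filter on low counts through the BPH/2J libraries, where it is high, and the size of its difference is uncertain. Adam17 releases the outer part of the Mertk protein in mouse and human macrophages. Within batch 2 neither Adam10 (adjusted p = 0.279) nor Adam17 (adjusted p = 0.652) was called. Pros1, which encodes protein S, the other TAM ligand, was level (21.4 ± 1.16 CPM in BPH_vehicle and 21.9 ± 5.72 CPM in BPN_vehicle, -0.04 ± 0.11, adjusted p = 0.866). On Cmpd17b 13.6% of the list were called, beside 14.1% of all genes. The 4 higher were Cd300lf (2.37 ± 0.58), the integrin Itgb3 (1.02 ± 0.27), Adam10 (0.27 ± 0.08) and P2ry2 (0.54 ± 0.10). The 2 lower were Timd4 and Ucp2 (-1.69 ± 0.16, adjusted p = 6.96e-09). Timd4, a phosphatidylserine receptor of resident macrophages, was lower by -0.94 ± 0.28 (adjusted p = 0.0188), and was not called without BPN_Cmpd17b replicate 4 (-0.76, adjusted p = 0.0913) or in batch 1 alone (-0.84, adjusted p = 0.0632).

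**Figure D5:**
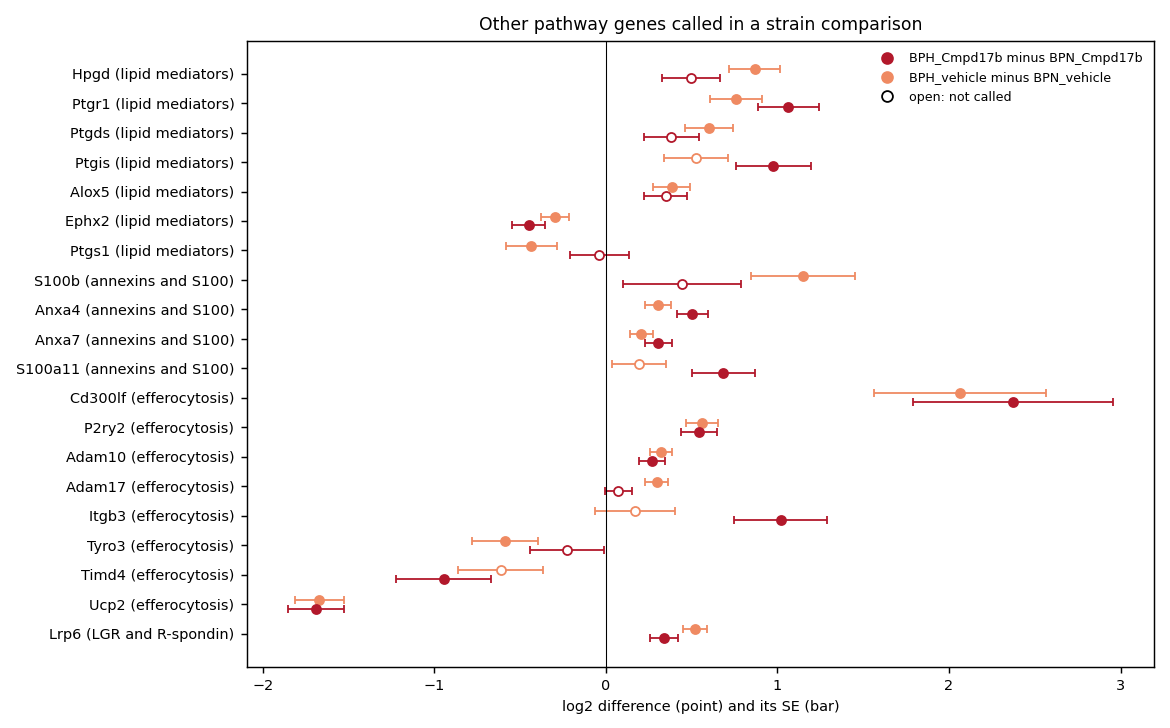
Log2 difference (points) and SE (bars) of the 20 genes of the 4 other lists called in at least 1 strain comparison, under Cmpd17b in dark red and under vehicle in orange, with filled points for calls. Ucp2 at -1.69 and -1.67 and Cd300lf at 2.37 and 2.06 lie farthest from zero, and Cd300lf is near the limit of detection.

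Annexins and S100 proteins other than the members had 3 of 18 tested genes higher and 0 lower in BPH_vehicle (16.7%, near the 18.9% of all genes): the annexins Anxa4 (0.30 ± 0.08, SE, adjusted p = 0.00477, edgeR) and Anxa7 (0.21 ± 0.07, adjusted p = 0.0319) and S100b (1.15 ± 0.30, adjusted p = 0.00656). S100b is also a marker of Schwann cells, and Schwann cell and neuron markers summed to 10.7 to 15.96 CPM in BPH_vehicle and 7.73 to 14.0 CPM in BPN_vehicle, with Th under 0.1 CPM in every library. The part of those cells in the result was not tested. Anxa7 was called in 8 of 14 repeats that each dropped 1 library and not within batch 2 (adjusted p = 0.699). S100b was called neither within batch 1 (0.93, adjusted p = 0.0743) nor within batch 2 (1.80, adjusted p = 0.104). On Cmpd17b Anxa4 (0.50 ± 0.09, adjusted p = 0.000122), Anxa7 (0.30 ± 0.08, adjusted p = 0.00657) and S100a11 (0.69 ± 0.18, adjusted p = 0.01) were higher and 0 were lower. That is 16.7% of the list, beside 14.1% of all genes. Anxa2, the partner of S100a10, was not called under vehicle (64.4 ± 9.73 CPM in BPH_vehicle and 76.8 ± 29.1 CPM in BPN_vehicle, -0.25 ± 0.15, adjusted p = 0.258), nor was Rarres2, which encodes chemerin, the protein ligand of Cmklr1 (19.1 ± 2.32 and 19.2 ± 5.05 CPM, -0.0049 ± 0.13, adjusted p = 0.985).

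Of 6 tested LGR receptors, R-spondins and partners, 1 was called higher and 0 lower in each strain comparison. That is 16.7%, beside 18.9% of all genes under vehicle and 14.1% on Cmpd17b. It was Lrp6, a Wnt co-receptor, with 50.2 ± 3.16 CPM in BPH_vehicle and 35.1 ± 4.82 CPM in BPN_vehicle (SD, n = 7 each). Its log2 difference was 0.52 ± 0.07 under vehicle (SE, adjusted p = 1.7e-06, edgeR) and 0.34 ± 0.08 on Cmpd17b (adjusted p = 0.00329). Lgr4, a relative of Lgr6 with the same R-spondin ligands, was level between strains: 20.4 ± 2.78 CPM in BPH_vehicle and 19.4 ± 4.64 CPM in BPN_vehicle (0.08 ± 0.11, adjusted p = 0.701). In the Cmpd17b comparisons edgeR called 0 genes of the 4 lists in either strain.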

How the data were processed

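Polyadenylated left ventricular RNA was extracted with an Aurum kit, prepared with the VAHTS Universal V8 kit and read in pairs on an Illumina NovaSeq6000, per the labels' protocols. Trim Galore 0.6.7, STAR 2.7.9a and the build GRCm39 (mm39) are named in the submitters' processing notes. How reads were counted, with which annotation and whether by strand, is not given in the sources used here. Genes that overlap or have near-identical copies are therefore uncertain. The values deposited by the authors are expected counts per gene, and they were rounded (93.3% were whole, and 2.21% were off by over 0.01). All 26 columns matched a sample. No 2 of the 25 libraries used were identical among 300 pairs.

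Groups came from strain and treatment in the sample titles, with replicates numbered in sample order. Genes were kept with filterByExpr of edgeR 4.0.16 in R 4.3.3 (15543 genes in 25 libraries), scaled by TMM and tested with the robust quasi-likelihood F-test, with group and batch as terms, in 1 fit so that all groups share the estimate of spread. Adjusted p-values are Benjamini-Hochberg values over the genes tested in a contrast. SE was taken as the log2 difference over root F, and 95% intervals use the t distribution of the fit. The batch effect in BPN_Cmpd17b comes from the other groups. Alternatives were DESeq2 1.42.0, limma voom (limma 3.58.1), other scaling, filters, batches and sets of libraries.

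The members, lists, tests and the library left out were chosen with earlier results of these data known. All members were named, with every gene of the 4 lists that was called (at most 8 per list and contrast), a set of 13 partner genes, and the genes most like each member called under vehicle. Chromosome coordinates are those of the promoter table on GRCm38.p6.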

Additional observations from a re-analysis of the deposited data

Results flagged for a closer look

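Within each of 40 combinations of a member and a group, the highest and lowest library were compared with their nearest neighbour by Dixon's ratio at its 95% value, which flags about 1 in 20 groups by chance, and 5 stood apart. Mertk reached 16.05 CPM in BPN_vehicle replicate 7, where the next library had 9.64 CPM. That library also had the lowest voom quality weight of the 25 (0.0799), and the strain difference of Mertk without it was -1.31. Mfge8 reached 117.1 CPM in BPH_Cmpd17b replicate 3, next to 100.2 CPM. Anxa1 reached 35.9 CPM in BPH_Cmpd17b replicate 6, next to 24.997 CPM. In that replicate 6 the log2 fibroblast marker sum also stood farthest above the value fitted from its group and the shared batch shift. Cmklr1 was low at 5.28 CPM in BPN_Cmpd17b replicate 4, where the next library had 7.03 CPM. S100a10 reached 20.1 CPM in BPN_Cmpd17b replicate 1, next to 17.1 CPM.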

How the results depend on the processing

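Lgr6 kept its direction and call in both strain comparisons under every alternative run, with log2 differences from 3.18 to 3.41 under vehicle and from 3.07 to 3.32 on Cmpd17b, repeats without 1 library included. Mertk kept both under vehicle (-1.75 to -0.83), and on Cmpd17b under 9 of 10, the exception being all 26 libraries. Gas6 under vehicle stayed called in 8 of 11 alternatives and in all 14 fits that left out 1 library. With all 26 libraries 1 member was called on Cmpd17b, against 2 with 25, and all genes called numbered 1492 under vehicle and 1195 on Cmpd17b, against 2936 and 2197. Batch 2 alone called 1130 genes under vehicle and 122 for Cmpd17b in BPH/2J, where it holds 1 treated library, assumed to vary like the others. Limma voom called 3392 on Cmpd17b, and DESeq2 called 1 for Cmpd17b in BPN/3J. The cause of these shifts was not tested. Leaving out 1 library gave 3 to 4 members under vehicle and 2 on Cmpd17b. Among 1138 repeated values of members called in neither fit, 104 had the other sign, and such signs were not counted as reversals. No called value changed sign. Without BPN_vehicle replicate 7 the uncalled vehicle differences were 0.06 for Axl, 0.02 for Mfge8, -0.01 for Alox5ap, 0.15 for Anxa1, 0.14 for Lta4h, -0.07 for Anxa2, 0.11 for Pros1, 0.11 for Rarres2 and -0.03 for Lgr4, still uncalled. No paired analysis was possible because replicate numbers follow sample order and pair no mice. With 5 to 7 mice per group small differences may be missed, and low counts limit the precision of Alox5ap, Mertk and Cmklr1 and left Fpr1 and Fpr2 untested.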

Other observations

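The genes next to the 3 members called under vehicle were looked at in the order of the RefSeq table (GRCm38.p6), a choice made after the values were seen. Of the 10 nearest tested genes around Lgr6, 4 were called in BPH_vehicle against BPN_vehicle, all higher: Arl8a, a lysosomal small GTPase (0.50 ± 0.08, SE, adjusted p = 1.33e-05, edgeR), Gm51748 (1.36 ± 0.25, adjusted p = 0.000189), the nucleotide exchange factor Rabif (0.23 ± 0.07, adjusted p = 0.0192) and the ubiquitin conjugase Ube2t (0.48 ± 0.17, adjusted p = 0.0491). Around Mertk 1 of 10 was called, Tmem87b, which was higher (0.29 ± 0.06, adjusted p = 0.00108) next to the lower Mertk. Around Gas6 3 of 10 were called, all higher where Gas6 was lower: Tmco3 (0.51 ± 0.09, adjusted p = 7.04e-05), Rasa3 (0.32 ± 0.08, adjusted p = 0.00294) and Adprhl1 (0.30 ± 0.08, adjusted p = 0.00651). Among all genes 18.9% were called. On Cmpd17b the counts were 2, 1 and 3 of 10, where 14.1% of all genes were called, and the genes were not all the same. Around Lgr6 they were Gm51748 and Arl8a, around Mertk Morrbid, and around Gas6 Adprhl1, Tmem255b and Rasa3, all higher. Gas6 itself was not called there.

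The genes whose log2 CPM went most with a member over the 25 libraries were, for Lgr6, Gm54268 (Pearson r = 0.989), Gm53808 (0.987) and Plekha7 (0.983), and most against it Gm15772 (-0.993), Gm12191 (-0.99) and Gm14391 (-0.985). For Mertk they were 9530082P21Rik (r = 0.95), Adgre5 (0.949) and Zfp984 (0.947), and most against it Tma7-ps and Eif3j2 (both -0.95) and Fam81a (-0.947). For Gas6 they were Ehd1 (r = 0.906), Tecpr1 (0.891) and Dpep1 (0.883), and most against it Gtf2a1 (-0.903), Zbtb38 (-0.889) and Wls (-0.886). The libraries share 2 strains. With the fit on group and batch taken off, r with Lgr6 was 0.23 for Gm54268, 0.315 for Gm53808 and -0.0263 for Plekha7. For the genes most against Lgr6 it was -0.407, -0.327 and -0.15. It was 0.51 to 0.696 for the genes most like Mertk and 0.686 to 0.779 for those most like Gas6. For the genes most against them it was -0.677 to -0.515 and -0.71 to -0.685. These values are a description, with no test.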
